A study of Mus musculus with 96 samples.

Results

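Autosomal gene expression in the nucleus accumbens (NAc) was compared between XXSry and XY-Sry mice, which both have testes and differ in their sex chromosomes. The comparison used 24 of the 96 libraries of the study, 12 from XXSry and 12 from XY-Sry mice, with stress treatment and cohort in the model. It covered the 18527 genes of chromosomes 1 to 19 among the 19376 genes tested on all chromosomes. The mice belong to the FCG model, in which the testis-determining gene Sry is missing from the Y chromosome (written Y-) and is supplied by a transgene, so that chromosome complement and gonad type can be varied independently. Some lines of this model are known to carry a duplication of X-linked genes on the Y-, and whether these mice do was not analysed here. All 24 mice carried the Sry transgene. XXSry mice had 2 X chromosomes and no Y, and XY-Sry mice had 1 X and the Y-.

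Of each genotype, 6 mice underwent subchronic variable stress, which consisted of 1-hour restraint given in 3 sessions on alternating days over 6 days, and 6 were unstressed controls. The study also holds XX and XY- mice with ovaries and the prefrontal cortex (PFC) of every animal, which are used here only for differences from the NAc of mice with testes. The cohorts were uneven between the genotypes: cohorts 1, 2 and 3 gave 9, 2 and 1 XXSry libraries and 3, 5 and 4 XY-Sry libraries. Each library came from a different animal, named in the titles.

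Mice with 2 X chromosomes silence most genes of 1 of them through the RNA Xist. Apart from Sry, which the transgene supplies here, Y-linked genes are present only in mice with a Y. Autosomal genes have the same copy number in both genotypes, and the comparison asks whether their expression differs with the sex chromosomes while the gonad is the same. The NAc is the ventral part of the striatum and consists mostly of medium spiny neurons, GABAergic projection cells that express dopamine receptors. Interferon-stimulated genes, which are described at most length, are switched on when interferons bind their receptors. Type I interferons act through a complex that holds IRF9 and binds the interferon-stimulated response element (ISRE) in promoters.

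The libraries held between 45.9 and 120.8 M counts, where M is 1000000 (mean 79.4 ± 15.9 SD, n = 24). The labels state an average of about 45 M reads a sample, below these totals, and whether a read pair was counted once or as its 2 reads is not given in the sources used here. Sex-linked RNAs matched the genotype labels in all 24 libraries. Xist ranged from 1720 to 2170 CPM (counts per 1000000 counts of a library) in XXSry libraries and from 0 to 2.51 CPM in XY-Sry libraries, and Kdm5d from 0 to 0.21 CPM in XXSry and from 55.5 to 73.3 CPM in XY-Sry. The tissue label was checked with 10 markers of the accumbens, among them Drd1, Drd2 and Penk. Their summed level was 3407 to 6460 CPM in XXSry and 2973 to 6157 CPM in XY-Sry NAc libraries, against 227 to 269 CPM and 236 to 336 CPM in the PFC libraries of the same XXSry and XY-Sry animals. None of the 10 was at 0 in any NAc library. The summed level of 5 cortex markers was 29.4 to 826 CPM in XXSry and 125 to 940 CPM in XY-Sry NAc libraries. In the PFC libraries it was 1716 to 2040 CPM in XXSry and 1801 to 2080 CPM in XY-Sry. The NAc libraries thus varied widely in cortex markers. XY-Sry Control replicate 33 stood far above the other libraries in interferon-stimulated genes, so the lists of such genes and the main genes in them are given with and without it.

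No autosomal gene passed the threshold between XXSry and XY-Sry mice. The quasi-likelihood test of edgeR called 0 of 18527 autosomal genes at a Benjamini-Hochberg adjusted p below 0.05 (0.0%). The same fit called 21 genes of the X or Y chromosome. At an unadjusted p below 0.05 there were 990 autosomal genes (5.34%), of which 533 were higher (2.88%) and 457 lower (2.47%) in XXSry mice. The limma-voom test also called 0 genes, with 1065 at an unadjusted p below 0.05, and DESeq2 called 5 (0.027%), with 1107 at an unadjusted p below 0.05 (5.98%). No gene had ranges that were separate between the 12 XXSry and the 12 XY-Sry libraries (0.0%). The median standard error of a log2 fold change was 0.094 over all autosomal genes and 0.073 over the 14209 genes with a mean of at least 0 on the log2 CPM scale.

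Of the 10 autosomal genes of smallest p, 9 are given as values, since none passed in edgeR. Pisd encodes the mitochondrial enzyme that makes phosphatidylethanolamine from phosphatidylserine (ENSMUSG00000023452, chr5:32736301-32785646 of GRCm38). It ranged from 23.1 to 33.4 CPM with a median of 27.7 in XXSry libraries and from 18.5 to 26.4 CPM with a median of 23.98 in XY-Sry libraries. Thus 9 XXSry libraries lay above every XY-Sry library. Its log2 fold change was 0.26 (SE 0.057), with an adjusted p of 0.0871 by edgeR and 0.0174 by DESeq2. Its unprocessed pseudogenes Pisd-ps1 and Pisd-ps2, named here after their values were seen, had log2 fold changes of 0.69 (SE 0.20) and 0.62 (SE 0.19). Reads of Pisd and these relatives may be shared, so the 3 values are uncertain and not independent.

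The non-coding transcript 1700030C10Rik (ENSMUSG00000099759, chr12:20804381-20815779) had the largest positive difference among these 10 genes. Its level was 0.512 to 2.13 CPM with a median of 0.924 in XXSry mice and 0.158 to 0.783 CPM with a median of 0.401 in XY-Sry mice. The groups overlapped in part, with 9 XXSry libraries above all XY-Sry libraries and 10 XY-Sry libraries below all XXSry libraries. The log2 fold change was 1.22 (SE 0.28), with an adjusted p of 0.151 by edgeR and 0.0078 by DESeq2, and it was 1.33, 1.23 and 0.33 within cohorts 1, 2 and 3. A pseudogene of the same symbol inside its span (ENSMUSG00000091071, chosen after its values were seen) had a log2 fold change of 1.61 (SE 0.58). The overlap means that reads could be assigned to either identifier. The mice with ovaries share no library with this comparison, but their values come from 1 fit of all 48 NAc libraries, which includes these 24. In that fit 1700030C10Rik had a log2 fold change of 1.08 between XX and XY- mice (adjusted p = 0.0263, edgeR). In the PFC of the 24 mice with testes it was 1.33 between XXSry and XY-Sry (adjusted p = 0.117, edgeR).

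Cnn2 encodes calponin 2, an actin-binding protein (chr10:79988584-79996062). It ranged from 1.52 to 3.38 CPM with a median of 2.60 in XXSry libraries and from 2.73 to 4.21 CPM with a median of 3.48 in XY-Sry libraries. That left 8 XXSry libraries below every XY-Sry library. The log2 fold change was -0.43 (SE 0.11, adjusted p = 0.41, edgeR). With all 48 NAc libraries in the fit, which called 2 autosomal genes (0.0106%), it was -0.44 with an adjusted p of 0.0458, and between XX and XY- mice with ovaries it was -0.42 with an adjusted p of 0.0169 (edgeR). F830016B08Rik, a protein-coding gene of chromosome 18, was read at 0 to 0.136 CPM in XXSry and at 0.0286 to 2.92 CPM in XY-Sry libraries. Its log2 fold change was -2.72 (SE 0.73, adjusted p = 0.557 by edgeR and 0.0291 by DESeq2), and its highest level was that of XY-Sry Control replicate 33. Without that library the log2 fold change was -2.12. Between XX and XY- mice with ovaries it was -2.74 (adjusted p = 0.0088, edgeR).

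Krt2 was low in nearly every library, and its difference shrank without 1 animal. Krt2, a keratin of the epidermis, ranged from 0 to 0.197 CPM with a median of 0.055 in XXSry mice and from 0 to 1.46 CPM with a median of 0.142 in XY-Sry mice. The highest value was in XY-Sry Stress replicate 7. The log2 fold change was -2.75 (SE 0.62), with an adjusted p of 0.116 by edgeR and 0.0153 by DESeq2. Without replicate 7 it was -1.72 in edgeR, with an adjusted p of 0.998.

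The other 4 genes of smallest p had adjusted p-values of 0.36 to 0.557 in edgeR. Pla2g2d, a secreted phospholipase A2, was at 0 to 0.111 CPM in XXSry mice and at 0.0163 to 0.412 CPM in XY-Sry mice (log2 fold change -2.14, SE 0.54). Prag1, a pseudokinase that binds Src-family kinases, had a log2 fold change of 0.21 (SE 0.054), or 0.086 without the cohort term. Its ranges of 17.8 to 25.2 CPM in XXSry and 16.6 to 24.3 CPM in XY-Sry overlapped, with close medians of 20.5 and 20.3 CPM. Uaca and the chloride channel gene Cftr had log2 fold changes of 0.26 (SE 0.069) and 0.51 (SE 0.14), or 0.18 and 0.27 without the cohort term.

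**Figure D1:**
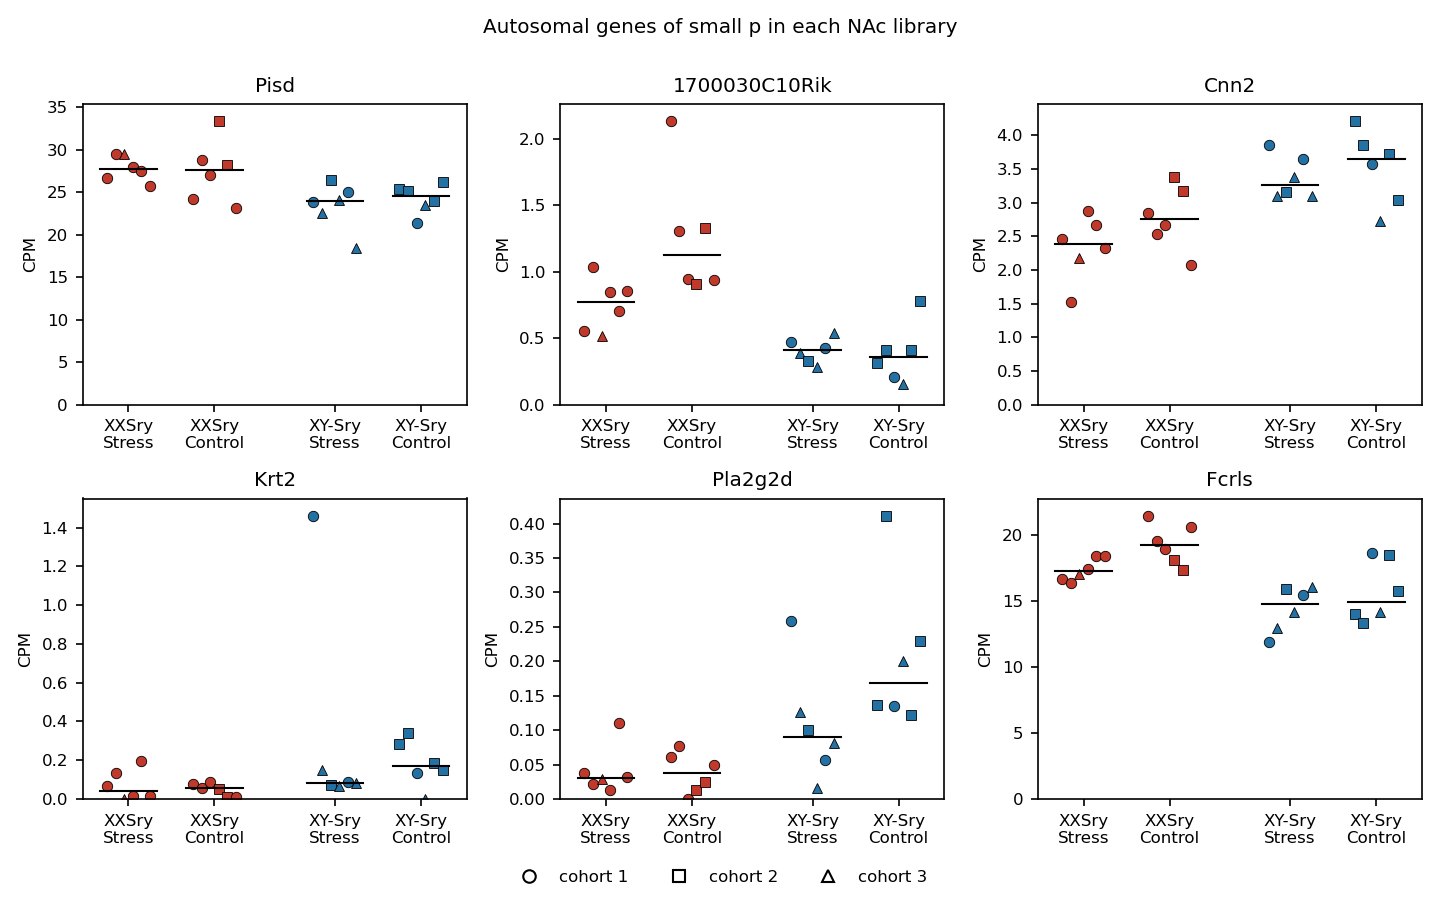
Levels in CPM (linear axes from 0) of 6 autosomal genes in each NAc library, for stressed and control XXSry mice on the left and stressed and control XY-Sry mice on the right. Each point is 1 library of 1 mouse, its shape gives the cohort, and the line is the median of 6; the Krt2 panel shows the single high library, XY-Sry Stress replicate 7, at 1.46 CPM.

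Interferon-stimulated genes lay below 0 as a group, although no member passed the test. Of the 29 interferon-induced antiviral effectors tested, 0 were called and 29 had a log2 fold change below 0, with a median of -0.59. Over all autosomal genes tested 9170 of 18527 (49.5%) were below 0 and the median was 0.00. At an unadjusted p below 0.05, 15 of the 29 were lower in XXSry mice and 0 higher, where 2.47% of all autosomal genes were lower. The list was chosen with earlier results on these libraries known, so its direction is no independent evidence.

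The promoters of the first 5 effectors by p whose promoter holds the ISRE letters are shown, because the ISRE is the element through which type I interferon acts on such genes. They rank 1, 2, 3, 6 and 7 by p among the effectors, and the promoters of Herc6 and Ifit2, at ranks 4 and 5, held no match. Sequences are from RefSeq on GRCm38.p6 and run from 250 bases before to 50 bases after the start of the gene, on the strand of the gene. Capitals mark each match to the ISRE core, which is GAAA, any 2 bases (NN) and GAAA again, searched on both strands (TTTC, NN, TTTC on the other), and matches may overlap. Ifit1 lies on the plus strand (chr19:34640639-34640938) with 2 matches, and Rsad2 on the minus strand (chr12:26456403-26456702) with 1. Ifitm3 lies on the minus strand (chr7:141010695-141010994) with 2, Ifit3 on the plus strand (chr19:34583279-34583578) with 2, and Isg15 on the minus strand (chr4:156200769-156201068) with 3 overlapping matches.
Ifit1: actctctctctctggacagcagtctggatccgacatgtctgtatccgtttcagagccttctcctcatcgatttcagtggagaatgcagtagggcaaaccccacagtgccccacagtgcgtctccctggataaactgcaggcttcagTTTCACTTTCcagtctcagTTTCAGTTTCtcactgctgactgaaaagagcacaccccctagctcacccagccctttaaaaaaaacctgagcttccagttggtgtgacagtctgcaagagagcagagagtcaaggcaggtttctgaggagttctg
Rsad2: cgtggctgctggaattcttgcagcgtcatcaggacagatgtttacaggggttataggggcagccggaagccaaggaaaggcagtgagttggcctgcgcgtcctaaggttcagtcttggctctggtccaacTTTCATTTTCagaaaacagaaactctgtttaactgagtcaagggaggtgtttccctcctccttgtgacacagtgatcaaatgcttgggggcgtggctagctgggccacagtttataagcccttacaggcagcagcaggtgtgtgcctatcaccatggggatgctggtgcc
Ifitm3: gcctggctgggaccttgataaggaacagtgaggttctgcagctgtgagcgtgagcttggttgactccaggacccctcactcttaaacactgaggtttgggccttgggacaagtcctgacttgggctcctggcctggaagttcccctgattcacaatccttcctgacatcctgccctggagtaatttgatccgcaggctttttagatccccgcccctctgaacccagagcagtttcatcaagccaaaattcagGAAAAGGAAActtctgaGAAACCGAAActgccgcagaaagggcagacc
Ifit3: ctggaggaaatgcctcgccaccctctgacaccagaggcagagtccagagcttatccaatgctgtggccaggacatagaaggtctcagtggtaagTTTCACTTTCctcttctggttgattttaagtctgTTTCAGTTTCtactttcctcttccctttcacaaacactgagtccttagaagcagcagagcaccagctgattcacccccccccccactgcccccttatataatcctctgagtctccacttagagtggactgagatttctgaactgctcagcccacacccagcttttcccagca
Isg15: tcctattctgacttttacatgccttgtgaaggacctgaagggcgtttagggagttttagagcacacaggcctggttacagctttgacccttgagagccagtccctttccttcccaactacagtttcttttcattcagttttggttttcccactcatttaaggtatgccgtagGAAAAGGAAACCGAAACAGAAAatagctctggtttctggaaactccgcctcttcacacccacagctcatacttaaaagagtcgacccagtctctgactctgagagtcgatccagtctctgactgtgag

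Such a match was found in the promoter of 9 of 19 effectors with a promoter in the table (47.4%), of 9 of 10 interferon-induced GTPases (90.0%), of 6 of 23 sensors and signalling genes (26.1%) and of 3 of 14 MHC class I genes (21.4%). Of all 32851 promoters of this length in the table, 1131 held one (3.44%), or 1079 of 27025 genes (3.99%). A match of letters does not show that a factor binds there.

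Ifit1, which binds viral RNA and blocks its translation, had the smallest p of the effectors (ENSMUSG00000034459, chr19:34640871-34650009). It ranged from 1.44 to 2.64 CPM with a median of 1.71 in XXSry mice and from 2.14 to 23.9 CPM with a median of 2.91 in XY-Sry mice. Of the 12 XXSry libraries 7 were below every XY-Sry library, and of the 12 XY-Sry libraries 7 were above every XXSry library. The log2 fold change was -1.19 (SE 0.40, unadjusted p = 0.0076, adjusted p = 0.757, edgeR). The value of 23.9 CPM was that of XY-Sry Control replicate 33, and the next highest XY-Sry library had 6.25 CPM. Without replicate 33 the log2 fold change was -0.92 (SE 0.21, adjusted p = 0.167, edgeR).

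Rsad2 encodes viperin, an enzyme that makes a chain-terminating nucleotide. It ranged from 1.10 to 2.58 CPM with a median of 1.54 in XXSry and from 1.31 to 6.84 CPM with a median of 2.04 in XY-Sry libraries (log2 fold change -0.71, SE 0.25). Ifitm3, a membrane protein that stops viruses from entering cells, was at a median of 4.72 CPM (3.21 to 6.22) in XXSry and of 6.34 CPM (4.12 to 17.7) in XY-Sry libraries, with a log2 fold change of -0.56 (SE 0.20). For Herc6, a ubiquitin ligase family member, the medians were 9.20 CPM in XXSry and 11.2 CPM in XY-Sry libraries (log2 fold change -0.59, SE 0.21). Without replicate 33 the log2 fold changes were -0.55 in Rsad2, -0.42 in Ifitm3 and -0.50 in Herc6. In these 3 genes the genotypes overlapped, and the highest XY-Sry library was replicate 33 in Rsad2 and Ifitm3. In the 29 effectors, log2 fold changes ran from -1.40 in Mx1 to -0.07 in Cmpk2.

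**Figure D2:**
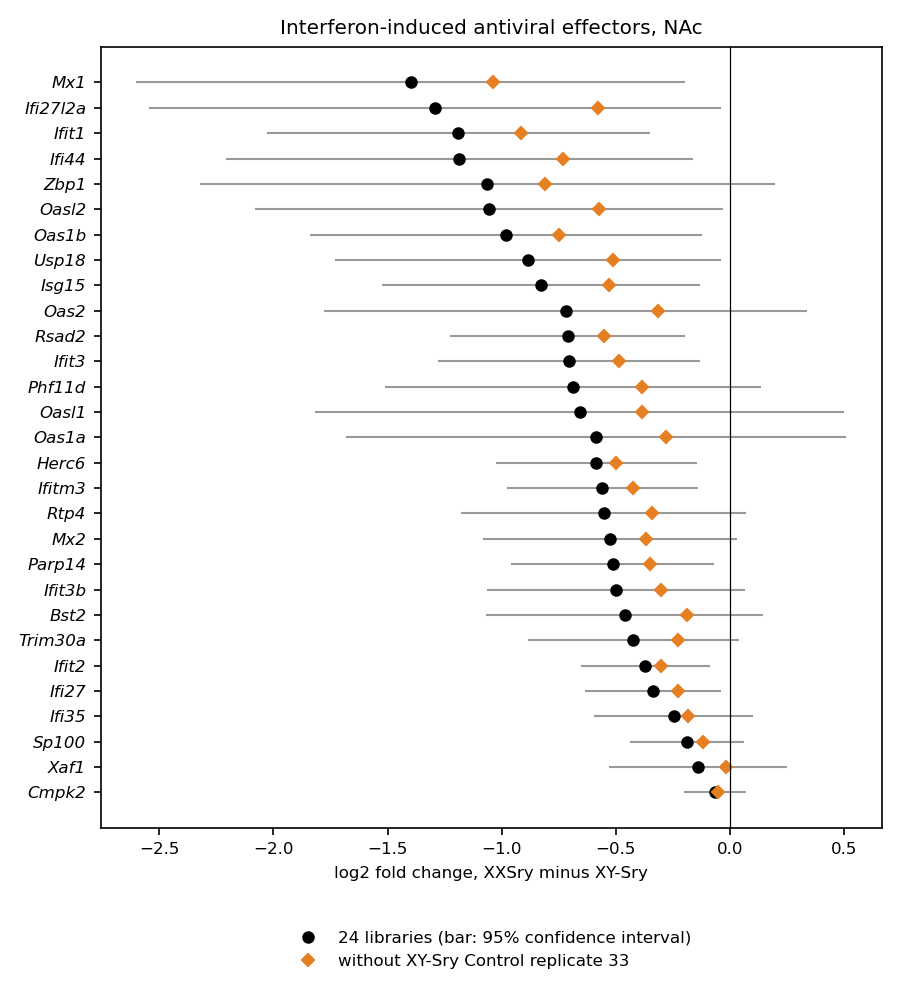
Log2 fold changes (XXSry minus XY-Sry, x axis) of the 29 interferon-induced antiviral effectors tested in the NAc, one gene per line. Black points with bars are the values and 95% confidence intervals over 24 libraries, and diamonds are the values without XY-Sry Control replicate 33; all 29 lie below 0 in both.

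Taken as a mean log2 CPM over the 29 effectors, XXSry libraries ran from 0.31 to 0.59 (median 0.49) and XY-Sry libraries from 0.41 to 3.07 (median 0.80). In this score 11 of the 12 XY-Sry libraries were above every XXSry library. The value of 3.07 was that of replicate 33, and the other XY-Sry libraries reached 1.28. The median log2 fold change of the effectors was -0.38 without replicate 33, with 29 of 29 below 0 and 15 at an unadjusted p below 0.05 (2.35% of all autosomal genes in that fit were lower at that level). When each library was left out in turn, the median ran from -0.76 to -0.38, and 29 of 29 stayed below 0 each time. The number at an unadjusted p below 0.05 ran from 5 to 17. It was 5 without XXSry Control replicate 34, and 8 without XY-Sry Stress replicate 7 as well as without XXSry Control replicate 39. Over all autosomal genes, in either direction, 653, 429 and 1531 passed that level without replicates 34, 7 and 39, against 990 with all 24 libraries.

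The medians of the effectors within cohorts 1, 2 and 3 were -0.42, -1.44 and -0.15, with 28, 29 and 24 of 29 below 0. Cohort 2 holds replicate 33, and cohort 3 has 1 XXSry library against 4 XY-Sry libraries, so that its lone XXSry sample is assumed to vary like the others. The range of the score was 0.31 to 0.59 in the 9 XXSry libraries and 0.76 to 1.20 in the 3 XY-Sry libraries of cohort 1. In cohort 2 it was 0.42 and 0.47 in the 2 XXSry libraries against 0.61 to 3.07 in the 5 XY-Sry libraries. In cohort 3 the XXSry library had 0.43 and the XY-Sry libraries 0.41 to 0.89, so the genotypes overlapped there.

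The interferon-induced GTPases, which attack the vacuoles of intracellular pathogens, lay below 0 as well. Of 15 tested, 0 were called and 14 were below 0, with a median of -0.60 (-0.43 without replicate 33). At an unadjusted p below 0.05, 10 were lower, where 2.47% of all autosomal genes were. Irgm1, a regulator of these GTPases (chr11:48861968-48871683), ranged from 5.22 to 9.13 CPM with a median of 7.17 in XXSry and from 7.77 to 22.3 CPM with a median of 8.49 in XY-Sry libraries. It left 8 XXSry libraries below every XY-Sry library, and its log2 fold change was -0.55 (SE 0.17, adjusted p = 0.757, edgeR). Without replicate 33 it was -0.43 (SE 0.091) with an adjusted p of 0.0704 (edgeR).

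Igtp and Ifi47, GTPases of the same family, had log2 fold changes of -0.60 (SE 0.20) and -0.93 (SE 0.31), or -0.47 and -0.74 without replicate 33. The guanylate-binding protein Gbp6 had -1.22 (SE 0.39), -1.04 without replicate 33 and 0.20 within cohort 3. Tgtp1 was the member above 0, with a log2 fold change of 0.32 (SE 0.60) at a median of 0.134 CPM in XXSry and 0.0967 CPM in XY-Sry libraries. Tgtp1 and Tgtp2 are near-identical copies, and so are several of the GTPases, so that their counts are uncertain.

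Sensors of foreign nucleic acid and interferon signalling factors had a median nearer 0. Of 27 tested, 0 were called and 20 were below 0, with a median of -0.12. At an unadjusted p below 0.05, 6 were lower, where 2.47% of all autosomal genes were. The median was -0.04 without replicate 33 and -0.06 without XXSry Control replicate 39. Ifih1, which senses long double-stranded RNA (chr2:62595798-62646255), ranged from 2.88 to 5.31 CPM with a median of 4.51 in XXSry mice and from 3.24 to 16.01 CPM with a median of 5.59 in XY-Sry mice. Of the XY-Sry libraries 6 were above every XXSry library. The log2 fold change of Ifih1 was -0.71 (SE 0.24, adjusted p = 0.757, edgeR), and it was -0.55 without replicate 33. Tlr3, an endosomal receptor for double-stranded RNA, had -0.19 (SE 0.073). Cgas, the sensor of cytosolic DNA, had -0.44 (SE 0.17), and it overlaps a measured gene on the other strand.

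MHC class I molecules present peptides of the cell to cytotoxic T cells. Of their 17 genes and peptide-loading partners tested, 0 were called and 16 were below 0, with a median of -0.29. At an unadjusted p below 0.05, 2 were lower, where 2.47% of all autosomal genes were. Without replicate 33 the median was -0.14, with 13 of 16 below 0 and 5 lower at that level. Without XXSry Control replicate 39 it was -0.18, with 15 of 16 below 0 and 0 lower at that level. In that fit 1531 of all autosomal genes passed that level in either direction. B2m, the common light chain, ranged from 44.01 to 56.5 CPM with a median of 50.2 in XXSry mice and from 47.8 to 174 CPM with a median of 58.3 in XY-Sry mice. Its log2 fold change was -0.36 (SE 0.19), and it was -0.20 (SE 0.058, adjusted p = 0.734, edgeR) without replicate 33, which had the value of 174 CPM. Psmb8, a subunit of the immunoproteasome, had -0.53 (SE 0.25), and -0.32 (SE 0.15) without replicate 33. H2-Q6 had -1.32 (SE 0.59), and -0.65 (SE 0.31) without replicate 33. The H2-Q genes are near-identical, so that their split is uncertain, and H2-T23 (-0.21, SE 0.11) overlaps a measured gene on the other strand.

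**Figure D3:**
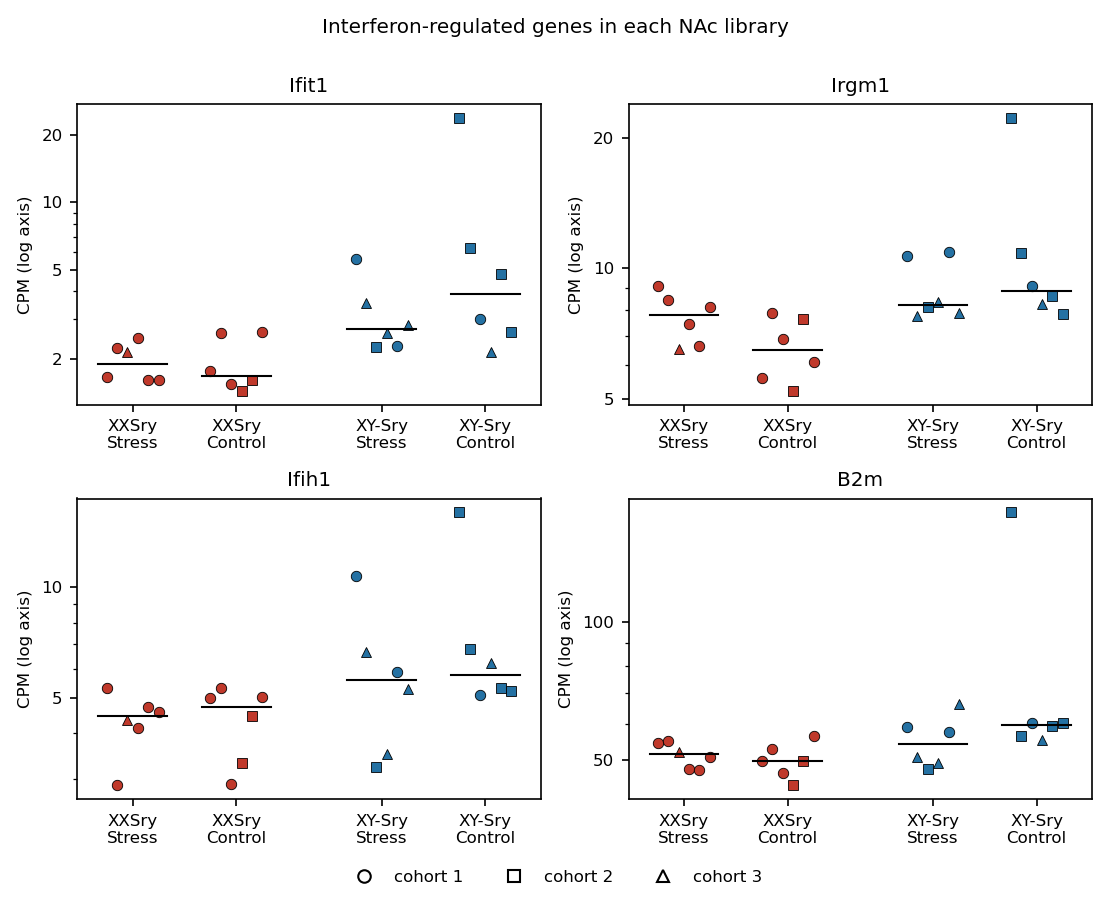
Levels in CPM (log axes) of Ifit1, Irgm1, Ifih1 and B2m in each NAc library, for stressed and control XXSry mice on the left and stressed and control XY-Sry mice on the right. Each point is 1 library, its shape gives the cohort, and the line is the median of 6; the highest point in every panel is XY-Sry Control replicate 33, at 23.9, 22.3, 16.01 and 174 CPM.

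Microglia, the resident macrophages of the brain, were read by a list of homeostatic markers and a list of activation genes. Of the 16 homeostatic markers 0 were called, 6 were below 0 and the median was 0.02. Without replicate 33 only 2 were below 0, with a median of 0.07 and 3 higher at an unadjusted p below 0.05. In that fit 877 of all autosomal genes passed that level in either direction. Without XXSry Stress replicate 21 there were 10 homeostatic markers below 0, with a median of -0.02. Fcrls, a surface protein found on microglia, had the smallest p of them, with 16.4 to 21.5 CPM (median 18.2) in XXSry and 11.9 to 18.6 CPM (median 14.8) in XY-Sry libraries. There 10 XY-Sry libraries were below every XXSry library, and the log2 fold change was 0.24 (SE 0.071, adjusted p = 0.757, edgeR), or 0.28 with an adjusted p of 0.0496 when cohort was left out of the model. Cx3cr1 and Selplg had log2 fold changes of 0.10 (SE 0.062) and 0.13 (SE 0.085), and Siglech of -0.13 (SE 0.078). Cx3cr1 overlaps a measured gene on the other strand.

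Of the 20 chemokines and activation genes 0 were called and 12 were below 0, with a median of -0.16. At an unadjusted p below 0.05, 2 were lower, where 2.47% of all autosomal genes were. The median was -0.09 without replicate 33 and without XY-Sry Stress replicate 7, -0.10 without XY-Sry Stress replicate 8, -0.06 without XY-Sry Stress replicate 30 and -0.27 without XXSry Stress replicate 21. Clec7a, a receptor of phagocytes, was at 0 to 0.333 CPM with a median of 0.103 in XXSry and at 0.057 to 2.98 CPM with a median of 0.294 in XY-Sry libraries (log2 fold change -1.68, SE 0.69). Itgax had a log2 fold change of -1.22 (SE 0.58) and Cxcl10, an interferon-induced chemokine, of -2.25 (SE 1.15). All 3 genes had their highest level in replicate 33, and without it the log2 fold changes were -1.14 in Clec7a, -0.70 in Itgax and -1.63 in Cxcl10. Cxcl10 overlaps a measured gene on the other strand. Apoe, made mostly by astrocytes, had 0.11 (SE 0.058) at a median of 615 CPM in XXSry and 588 CPM in XY-Sry libraries.

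Markers of regional neurons spread widely between libraries of the same genotype, and 0 passed the test. The 22 medium spiny neuron genes all had log2 fold changes above 0, with a median of 0.23 and a range of 0.05 to 0.29. Of these, 0 were called and 3 were higher at an unadjusted p below 0.05, where 2.88% of all autosomal genes were. Rgs14, a regulator of G protein signalling, had 50.3 to 85.2 CPM with a median of 62.9 in XXSry and 45.1 to 94.3 CPM with a median of 53.6 in XY-Sry libraries (log2 fold change 0.25, SE 0.092, adjusted p = 0.757, edgeR). Adcy5, the main adenylyl cyclase of the striatum, had 0.28 (SE 0.12), and Pde1b and the orphan receptor gene Gpr6 had 0.27 (SE 0.13) and 0.26 (SE 0.13). The genotypes overlapped in these 4 genes, with 2 XY-Sry libraries below every XXSry library in Rgs14 and Gpr6, 5 in Adcy5 and 4 in Pde1b.

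Most cortical and other regional neuron genes were below 0. Of 15 tested, 0 were called, 11 were below 0 and 0 passed an unadjusted p of 0.05, with a median of -0.52. Slc17a7, the vesicular glutamate transporter of cortical neurons, ranged from 22.6 to 641 CPM with a median of 280 in XXSry and from 93.8 to 628 CPM with a median of 368 in XY-Sry NAc libraries. In the PFC of the same animals it was at 1217 to 1519 CPM in XXSry and 1348 to 1543 CPM in XY-Sry. Emx1 and Nrn1 had log2 fold changes of -0.79 (SE 0.46) and -0.85 (SE 0.43), and Nrn1 overlaps a measured gene on the other strand. In tissue punches fewer cells of a type and less RNA per cell cannot be told apart.

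Leaving out XY-Sry Stress replicate 7 gave medians of -0.24 for the cortical list and 0.15 for the medium spiny neuron list. The number of medium spiny neuron genes higher at an unadjusted p below 0.05 was 1 without that library or XY-Sry Control replicate 38. It was 5 without XXSry Stress replicate 12, 6 without XXSry Stress replicate 28 and 11 without XY-Sry Stress replicate 23. Over all autosomal genes, in either direction, 429 passed that level without replicate 7 and 1047 without replicate 38. Without replicates 12, 28 and 23 these counts were 1326, 1093 and 1856, against 990 with all 24 libraries. Within cohorts 1, 2 and 3 the medians of the cortical list were -0.70, -0.52 and 0.26, and those of the medium spiny neuron list 0.32, 0.22 and -0.03. Both medians were nearer 0 when cohort was left out of the model. They were then -0.325 for the cortical list, with 11 of 15 below 0, and 0.12 for the medium spiny neuron list, with 0 of 22 below 0. With the score of the cortical list added to the model, a choice made after seeing the data, the medium spiny neuron median was 0.12 with 1 of 22 below 0, and the effector median was -0.56 with 29 of 29 below 0. That fit called 0 autosomal genes, with 528 at an unadjusted p below 0.05 (2.85%). Of these 250 were lower in XXSry mice, against 457 without the score. At that level 7 of 29 effectors, 8 of 15 GTPases and 0 of 17 MHC class I genes were lower, against 15, 10 and 2 without the score.

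**Figure D4:**
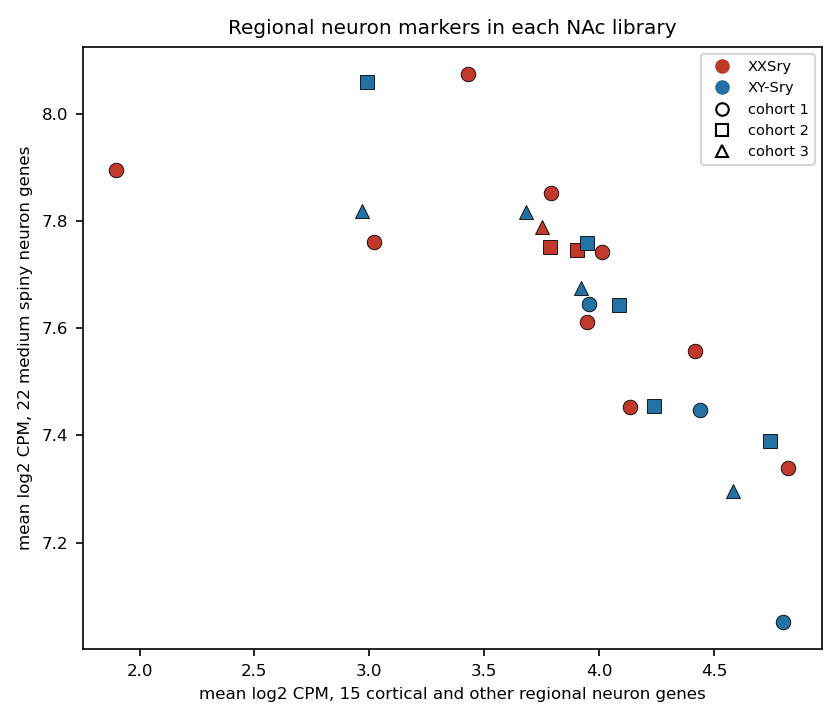
Mean log2 CPM of 22 medium spiny neuron genes (y axis) against that of 15 cortical and other regional neuron genes (x axis) in each of the 24 NAc libraries, coloured by genotype and shaped by cohort. XXSry libraries span 1.90 to 4.82 and XY-Sry libraries 2.97 to 4.799 on the x axis, and the genotypes are mixed along a falling band.

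Of the striatal transcription factors 16 of 18 were above 0, with a median of 0.11, and striatal interneuron genes had 6 of 14 above 0 and a median of -0.03. Within cohorts 1, 2 and 3 the transcription factor medians were 0.17, 0.17 and -0.12, with 16 of 18 below 0 in cohort 3. The median was -0.01 with 10 below 0 in stressed mice, and 0.04 with 6 below 0 without XY-Sry Stress replicate 7. Nkx2-1 overlaps a measured gene on the other strand. Gsx2 had a log2 fold change of -0.51 (SE 0.31). Ebf1, Zfp503 and Nkx2-1 had log2 fold changes of 0.21 (SE 0.12), 0.21 (SE 0.13) and 0.30 (SE 0.19). Of the other cell types, 13 of 14 myelin genes were above 0 with a median of 0.05, and 11 of 11 blood cell genes were below 0 with a median of -0.24. Within cohorts 1, 2 and 3 the blood cell medians were -0.36, 0.08 and 0.05, with 11 of 11, 5 of 10 and 3 of 8 below 0, and the mean score was 0.61 in XXSry and 0.60 in XY-Sry libraries. The medians were -0.01 for 14 astrocyte genes, 0.02 for 14 endothelial genes and -0.09 for 11 genes of ependyma and choroid plexus. No member of these lists was called. Their part in the interferon result was not tested.

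Actin and its binding proteins had 18 of 25 members below 0 and a median of -0.03. At an unadjusted p below 0.05, 4 were lower, Cnn2 among them, and 1 was higher. Of all autosomal genes 2.47% were lower and 2.88% higher at that level. Actb, the cytoplasmic beta-actin, ranged from 786 to 941 CPM with a median of 840 in XXSry mice and from 847 to 1034 CPM with a median of 926 in XY-Sry mice. Of the XXSry libraries 7 were below every XY-Sry library. The log2 fold change was -0.10 (SE 0.041, adjusted p = 0.757, edgeR) in the NAc, and -0.18 with an adjusted p of 7.3e-04 in the PFC of the same animals. Wdr1, which promotes actin filament disassembly, had -0.17 (SE 0.056), and Arpc5, a subunit of the Arp2/3 complex, had -0.12 (SE 0.05).

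The clustered beta protocadherins, adhesion proteins that give neurons their surface identity, lie in 1 cluster on chromosome 18 and are similar in sequence. Of 22 tested, 0 were called and 18 were above 0, with a median of 0.10. At an unadjusted p below 0.05, 3 were higher, where 2.88% of all autosomal genes were. Pcdhb6 ranged from 6.03 to 10.97 CPM with a median of 9.21 in XXSry and from 4.88 to 10.5 CPM with a median of 7.19 in XY-Sry libraries (log2 fold change 0.42, SE 0.11, adjusted p = 0.557, edgeR). Pcdhb11 and Pcdhb14 had 0.24 (SE 0.1) and 0.17 (SE 0.08).

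Proteins that bind Xist or silence the inactive X are made from autosomes as well. Of 15 tested, 0 were called and 11 were below 0, with a median of -0.03. Lbr, the lamin B receptor that tethers the inactive X to the nuclear lamina, had 10.9 to 14.8 CPM with a median of 13.2 in XXSry mice and 12.98 to 15.3 CPM with a median of 14.4 in XY-Sry mice. Its log2 fold change was -0.19 (SE 0.053, adjusted p = 0.727, edgeR), and 4 XXSry libraries were below every XY-Sry library. Lbr overlaps a measured gene on the other strand. The Polycomb genes Eed and Suz12 had -0.08 (SE 0.059) and -0.06 (SE 0.054), and Ciz1 had 0.12 (SE 0.11). Eed and Ciz1 overlap measured genes on the other strand too. Of 17 autosomal relatives and partners of X- and Y-linked genes, 14 were below 0, with a median of -0.04 and 0 called.

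Lists tied to stress and hormones had medians near 0 over all 24 libraries. Of 15 immediate early genes 10 were below 0 (median -0.09), of 15 glucocorticoid receptors and targets 10 (median -0.04), and of 12 gonadal steroid receptors and enzymes 7 (median -0.01), with 0 called in each. Within cohorts 1, 2 and 3 the immediate early gene medians were -0.23, -0.01 and 0.18. Their median was 0.03 without XY-Sry Stress replicate 7 and -0.14 without XXSry Control replicate 34. Mlph, named from earlier results on these data, encodes melanophilin, a Rab27 effector. Its log2 fold change was 0.39 (SE 0.21, adjusted p = 0.757, edgeR), with 0.528 to 1.88 CPM in XXSry and 0.634 to 1.88 CPM in XY-Sry libraries.

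**Figure D5:**
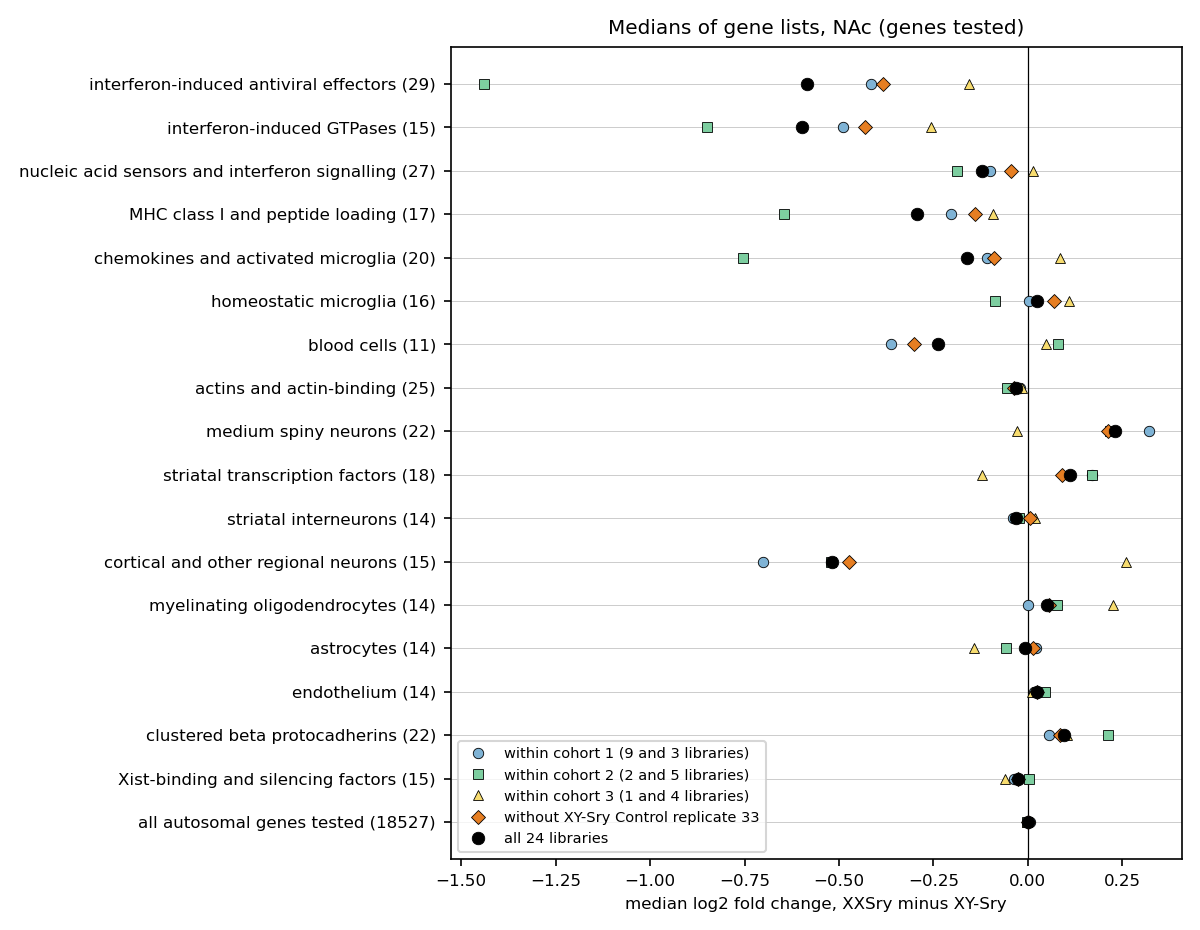
Median log2 fold change (XXSry minus XY-Sry, x axis) of gene lists and of all autosomal genes tested, with the number of genes tested in brackets. Black circles are all 24 libraries, diamonds leave out XY-Sry Control replicate 33, and the other shapes are fits within a cohort; the effectors lie at -0.59 over all libraries and at -0.42, -1.44 and -0.15 within cohorts 1, 2 and 3.

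Whether the genotype difference depended on stress was tested with an interaction term. The test called 0 autosomal genes (0.0%), with 945 at an unadjusted p below 0.05 (5.1%), while DESeq2 called 2, the antisense transcript 4833422C13Rik and Rorb. In Rorb, a nuclear receptor gene of cortical layer neurons, the genotype difference was 0.19 in stressed and -0.53 in control mice, and these differed by 0.72 (SE 0.15, adjusted p = 0.919 by edgeR and 0.0472 by DESeq2). For 4833422C13Rik it was 0.57 in stressed and -1.005 in control mice (difference 1.58, SE 0.36), and for Tmem163 it was 0.45 and -0.45 (difference 0.90, SE 0.20). Both overlap measured genes on the other strand. The effector median was -0.40 in stressed and -0.87 in control mice, and that of the cortical list 0.02 in stressed and -1.002 in control mice, with 0 members of either called in the interaction. Replicate 33 is a control. The cohorts were uneven within each treatment too. Cohorts 1 and 2 gave 4 and 2 XXSry controls, and cohorts 1, 2 and 3 gave 1, 4 and 1 XY-Sry controls. Cohorts 1 and 3 gave 5 and 1 stressed XXSry mice, and cohorts 1, 2 and 3 gave 2, 1 and 3 stressed XY-Sry mice. Differences between the treatments are therefore separable from cohort only in part.

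Within stressed mice 0 autosomal genes were called (0.0%), with 329 at an unadjusted p below 0.05 (1.78%). Within control mice the same fit called 1 (0.0054%), 1700030C10Rik, with a log2 fold change of 1.76, and 2190 were at an unadjusted p below 0.05 (11.8%). In stressed mice 0 of 22 medium spiny neuron genes were higher at that level, where 0.885% of all autosomal genes were, and in control mice 15 were, where 6.39% of all were. The interaction called 0 of the 22.

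Mice with ovaries gave the same chromosome contrast in other animals, 11 XX against 13 XY-. For this contrast, in the fit of all 48 NAc libraries, edgeR called 79 autosomal genes (0.42%), of which 77 were lower in XX mice (0.409%). Among these were 22 of the 29 effectors and 9 of the 15 GTPases. In that fit Ifit1 had a log2 fold change of -1.19 between XXSry and XY-Sry and of -2.15 (SE 0.39, adjusted p = 0.0018, edgeR) between XX and XY-. In the fit of all 48 NAc libraries the effector median was -0.57 in mice with testes and -1.39 in mice with ovaries. The test of the difference between the contrasts called 0 autosomal genes (0.0%), with 539 at an unadjusted p below 0.05 (2.86%), and DESeq2 called 0. Mmrn2 and Klf10 were among the genes of smallest p. Mmrn2, an endothelial matrix protein, had 0.18 in mice with testes and -0.33 in mice with ovaries, both from the fit of 48 libraries (difference 0.51, SE 0.13). Klf10 had -0.37 and 0.28 (difference -0.66, SE 0.19), each with an adjusted p of 1.0 (edgeR).

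In the PFC of the same 24 animals edgeR called 17 autosomal genes (0.0944%), 16 of them lower in XXSry mice (0.0888%). Of the effectors 4 were called there, all lower, and 27 of 29 were below 0 with a median of -0.37. Rsad2 was among the called, with a log2 fold change of -0.65 (adjusted p = 0.0426, edgeR). Herc6 had the opposite direction there to the NAc, with a log2 fold change of 0.11 (SE 0.044, adjusted p = 0.62, edgeR). In the PFC Ifit1 ranged from 1.10 to 2.58 CPM with a median of 2.08 in XXSry and from 1.59 to 4.95 CPM with a median of 2.82 in XY-Sry libraries. The animal of replicate 33 had the highest PFC level of the XY-Sry mice in Ifit1, Oasl2 and B2m and the next to highest in Irgm1, and its Ifit1 was at 23.9 CPM in the NAc, against 4.95 CPM in the PFC.

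A fit over both regions with the animal as a replicate block tested whether the genotype difference differed between NAc and PFC. It called 0 autosomal genes (0.0%), with 1218 at an unadjusted p below 0.05 (6.4%), and 0 without the block. The smallest p-values were those of Sh3rf2, Drd2 and Asic4, whose NAc and PFC values come from a separate fit of each region, so that they need not subtract exactly to the difference. For Drd2, the dopamine receptor of striatopallidal neurons, the genotype difference was 0.28 in the NAc and -0.96 in the PFC (difference 1.24, SE 0.24, adjusted p = 0.267, edgeR). Drd2 in the NAc was at 60.0 to 122 CPM in XXSry and at 45.9 to 122 CPM in XY-Sry libraries, against 0.351 to 0.812 CPM in XXSry and 0.518 to 2.51 CPM in XY-Sry PFC libraries. Sh3rf2 had 0.42 in the NAc and -1.06 in the PFC (difference 1.52, SE 0.27, adjusted p = 0.081), and Asic4, an acid-sensing ion channel family member, had 0.28 and -0.25 (difference 0.54, SE 0.12, adjusted p = 0.368, edgeR). Asic4 overlaps a measured gene on the other strand.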

How the data were processed

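Polyadenylated RNA from NAc and PFC tissue punches was sequenced with the Illumina TruSeq mRNA kit, per the labels' protocols. The authors deposited, for each region, a table of raw counts over 19918 Ensembl genes. The submitters' processing notes list, with no roles, HISAT2 2.2.0, Trimmomatic 0.38, FastQC 0.11.9, DESeq2 and edgeR, and the build GRCm38 (mm10). Which counter, strand setting, annotation or filter was used is not given in the sources used here. For this reason, 5082 tested autosomal genes that share bases with an oppositely oriented gene of the table are uncertain, and so are near-identical families. All sample columns were matched to labels, with 0 left unused.

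Symbols and positions came from GENCODE M21 (19795 of 19918 identifiers found). Counts of the 24 libraries were tested with edgeR 4.0.16 in R 4.3.3 (TMM, filterByExpr, robust glmQLFit, glmQLFTest) with treatment, cohort and genotype in the model, and p-values were adjusted by Benjamini-Hochberg over all 19376 genes tested. The standard error is the absolute log2 fold change over the root of F. CPM use TMM library sizes (plain totals for the sex-linked RNAs), and log2 CPM a prior count of 1. The script was tested on simulated data. Differences between treatments, gonads (48 NAc libraries) and regions used edgeR too. The titles give the same animal number in both regions, so the region fit has the animal as a replicate block. The 60 pairs of libraries within a group had at least 14.8 chi-square units per degree of freedom, so none were the same within sampling noise.

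The comparison and the 25 gene lists were chosen with earlier results of these data known. Lists are described by counts and medians, with no test of the list. Named genes are all called genes or, with fewer than 10 called, the 10 of smallest p; up to 4 members of smallest p of each list described; the 3 of smallest p of each difference test; and Actb and Mlph. Some genes that the rule names are not reported here. Genes outside this rule are named as examples of a range or as relatives. Alternatives were another scaling (DESeq2 size factors), other tools (DESeq2 1.42.0, limma-voom 3.58.1), no filter, a filter of 1 CPM in 12 libraries, no robust estimation, no cohort term, single cohorts, single treatments, 48 libraries, each library left out, and a cortical marker score as covariate, which was added after seeing the data. Promoters came from RefSeq.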

Additional observations from a re-analysis of the deposited data

Results flagged for a closer look

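In groups of 6 libraries (1 genotype and treatment), the gap of the highest or lowest library to its neighbour was compared with the range of the group (Dixon's ratio above 0.625, on log2 CPM). Of 324 groups, 36 stood out, and chance gives about 1 in 20 groups. The groups are not independent, since the list scores include named genes, so the count is no test against that rate. Of these, 13 belonged to XY-Sry Control replicate 33.

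That library was the highest of its group in Ifitm3 (17.7 CPM), Irgm1 (22.3), Igtp (9.61), Ifih1 (16.01), H2-Q6 (4.07), Psmb8 (5.57), B2m (174) and Itgax (3.63 CPM). It was also highest in the list scores, as mean log2 CPM, of antiviral effectors (3.07), GTPases (2.34), sensors (3.62), MHC class I genes (3.17) and activated microglia (2.401). The effector score of the other 5 XY-Sry controls was 0.41 to 1.28.

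XY-Sry Stress replicate 7 was highest in Krt2 (1.46 CPM) and lowest in the score of striatal transcription factors (4.27). XY-Sry Control replicate 46 was lowest in Krt2 (0 CPM) and Gm28438 (0.516 CPM). XY-Sry Control replicate 47 was highest in Rgs14 (66.9 CPM), Gpr6 (50.6) and Asic4 (43.8), and replicate 38 of that group was lowest in Prag1 (17.5 CPM). XY-Sry Stress replicate 23 was lowest in Eed (13.5 CPM), replicate 49 lowest in Pisd-ps1 (27.4 CPM), and replicate 30 highest in the GTPase score (1.49).

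In XXSry Control mice, replicate 27 was lowest in Emx1 (0.0434 CPM) and Neurod6 (1.43 CPM), replicate 3 was highest in Sh3rf2 (69.8 CPM), and replicate 11 was highest in the GTPase score (0.632). In XXSry Stress mice, replicate 28 was lowest in Zfp503 (9.15 CPM) and Sh3rf2 (22.4 CPM), and replicate 12 was highest in Cxcl10 (0.352 CPM) and lowest in Mlph (0.528 CPM). There too, replicate 21 was lowest in the pseudogene 1700030C10Rik (0.0712 CPM), replicate 22 was lowest in Klf10 (11.2 CPM), replicate 52 lowest in H2-T23 (5.09 CPM), and replicate 4 highest in the GTPase score (0.833). The cause of these values was not tested.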

How the results depend on the processing

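The count of 0 autosomal genes in edgeR held with DESeq2 size factors, no filter, the stricter filter, no robust estimation, limma-voom, the cortical covariate, Stress libraries only, and within cohorts 1 and 2. It was 5 with DESeq2, 3 without the cohort term (1700030C10Rik, F830016B08Rik and Fcrls), 1 within cohort 3 (Gm28438), 1 in a separate fit of Control libraries (4833422C13Rik) and 2 with 48 libraries (1700030C10Rik and Cnn2). Leaving out each library gave 0 to 1, with Krt2 called without XY-Sry Stress replicate 30 and Pisd without XY-Sry Stress replicate 49. The count at an unadjusted p below 0.05 was 990 in all, 429 without XY-Sry Stress replicate 7, 653 without XXSry Control replicate 34 and 1856 without XY-Sry Stress replicate 23. For the dependence on stress DESeq2 gave 2 in place of 0. The paired fit, with the animal as a replicate block, called 0 genes for the dependence on region, and so did the fit without it.

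Directions reversed within cohort 3, with its lone XXSry library, in Gbp6 (0.20), Itgax (0.25), Siglech (0.0285), Gpr6 (-0.0395), Zfp503 (-0.0576), Nkx2-1 (-0.0484), Nrn1 (0.28), Emx1 (0.55), Neurod2 (0.32) and Neurod6 (0.26), and with Stress libraries only in Ebf1 (-0.0138) and Gsx2 (0.32). Gm28438, at -0.08 in all libraries, had 0.11 with limma-voom and 0.14 and 0.20 within cohorts 1 and 2, and ran from -0.38 to 0.28 over the fits without 1 library, 5 of which reversed it. No other gene named for the genotype difference changed direction when 1 library was left out. At 45.9 to 120.8 M counts (M is 1000000), genes under 1 CPM carry large standard errors, and a difference in them may go undetected. Genotype and cohort are separable only in part, since the cohorts are uneven.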

Other observations

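The pseudogene Gm28438 on chromosome 1 spread widely within both genotypes. It was at 0.455, 1.08 and 1.17 CPM in 3 XXSry libraries and at 14.9 to 29.8 CPM in the other 9, and at 0.472, 0.516 and 0.656 CPM in 3 XY-Sry libraries and at 10.2 to 36.3 CPM in the other 9. The lone XXSry library of cohort 3 was at 0.455 CPM, which gave the log2 fold change of -5.73 there. Nlrp5-ps, a pseudogene chosen after its values were seen, ranged from 0.42 to 1.70 CPM with a median of 0.728 in XXSry libraries and from 0.242 to 0.796 CPM with a median of 0.393 in XY-Sry libraries. Its log2 fold change was 1.01 (SE 0.28, adjusted p = 0.586, edgeR).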
